A study of Homo sapiens with 6 samples.

Results

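Aminoacyl-tRNA synthetases join each amino acid to its transfer RNA, and the genes of this family in the nuclear genome were read out in K562 cells, a human erythroid leukemia line, with and without an iron chelator. The members were defined by gene name, with no measured value in the rule, although the family was picked with earlier results of these data known. They are 39 of the 62252 genes to which the quantified transcripts were assigned. Of these, 18 encode enzymes of the cytosol, 16 encode enzymes of mitochondria, 2 (GARS1 and KARS1) encode enzymes of both, and 3 (AIMP1, AIMP2 and EEF1E1) encode proteins that hold the multi-synthetase complex together without charging a tRNA. The Chelator group (3 libraries) received 21H7, a chelator of iron that enters cells, at 10 µM overnight, and the DMSO group (3 libraries) received the solvent. Polyadenylated RNA was sequenced, and the question put to the members was how their mRNA levels and transcript choice differed between the groups. The labels do not say whether the libraries of a group came from separate cultures, so the p-values measure the spread between these libraries, which may be technical.

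Library totals ran from 78615500.1 to 90383641 estimated counts in DMSO and from 85449857 to 101094957 in Chelator, and the members took between 0.787% and 0.839% of each. An estimated count is the number of read pairs the quantification assigned to a transcript and need not be whole. All 12 erythroid markers examined were at a TPM (transcript abundance: counts per base of effective length on a scale common to all libraries) of 1 or more in at least 1 library, with summed levels of 14543 to 15869.7 TPM in DMSO and 17932 to 19065 TPM in Chelator. Globins make up most of that sum: HBG1, HBG2 and HBZ rose, while the erythroid regulators KLF1 and LMO2 (both -0.72 on the log2 scale), EPOR (-0.44), NFE2 (-0.40) and TAL1 (-0.28) fell. Of 10 markers of other cell types 5 reached 1 TPM in a library and 1 was at 0 in all 6, with summed levels of 91.4 to 93.2 TPM in DMSO and 108 to 116 TPM in Chelator, and 5 of the 10 rose and 1 (EPCAM) fell. The part of these shifts in the values of the members was not tested. The difference between length and effective length was taken as a median over long transcripts without counts. It was 252 to 264 bases in the DMSO libraries and no more than 218 bases in any Chelator library. By this measure the sequenced fragments were shorter in Chelator. The effects of fragment length and of the chelator cannot be told apart. In RNA from whole cultures, fewer cells of a type and less RNA per cell cannot be told apart either.

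Protein synthesis runs in the cytosol and, separately, inside mitochondria, where the subunits encoded by the mitochondrial genome are made. Most amino acids therefore have a cytosolic and a mitochondrial synthetase from separate nuclear genes, while the mitochondrial tRNAs themselves come from the mitochondrial genome. Several cytosolic enzymes sit in the multi-synthetase complex on the scaffold proteins. Cytosolic synthetase genes are known targets of ATF4, the transcription factor of the integrated stress response, which also raises genes that make and import amino acids.

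After chelation 11 of the 16 mitochondrial enzymes fell and none rose, while the cytosolic enzymes split. Each gene was compared with DESeq2's Wald test with Benjamini-Hochberg adjustment over all genes, and "passed" here means an adjusted p under 0.05. On simulated libraries of this size the test made more false calls than that threshold allows, so the adjusted p may be too small. Of the 39 members 7 passed with a rise and 22 with a fall, where 19.5% of the 24542 genes with an adjusted p rose and 18.3% fell. Among the 18 cytosolic enzymes 6 rose, 9 fell and 3 did not pass, with a median log2 fold change of -0.16. Among the 16 mitochondrial enzymes none rose, 11 fell and 5 did not pass, with a median of -0.40, and the median over all 24542 genes was 0.02. No mitochondrial enzyme rose at an unadjusted p under 0.05 with DESeq2 (0 of 16), or at an adjusted p under 0.05 with edgeR's quasi-likelihood test (0 of 16). In DMSO the summed TPM of the 16 mitochondrial genes was 466, 534 and 476, and in Chelator it was 369, 362 and 357, 0.737 times the DMSO mean. The 17 cytosolic genes other than MARS1, whose transcripts are described on their own, summed to 2885, 3345 and 3013 TPM in DMSO and to 3217, 3045 and 3072 in Chelator, where the groups overlapped. The ratio of these sums, cytosolic over mitochondrial, was 6.26 ± 0.0681 in DMSO and 8.57 ± 0.153 in Chelator (mean ± SD, n = 3).

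A stricter call asked for an adjusted p under 0.05 together with a log2 fold change above 1 in size. It took 2 members, MARS2 and EARS2, both lower, against 2.6% of all genes, and no member that was higher, against 8.18% of all genes. The lower call took 5 members after centring (TARS3, VARS1 and FARSA added) and 5 with the trends along GC content and length taken out (VARS1, FARSA and FARS2 added). No member was higher by this size at an unadjusted p either, and edgeR called 1, MARS1. The 6 libraries of 8 members showed every Chelator value above every DMSO value (25.5% of all genes), and those of 23 members every Chelator value below (23.7% of all genes). The scale matters for the all-gene background: over all genes 51.6% of those that passed were higher, 35.2% with the mean log2 change set to 0 and 35.5% with the trends along GC content and length taken out. Those scales moved the median gene to -0.14 and -0.13. Under them the members split into 5 higher and 29 lower, and into 5 higher and 26 lower, and the mitochondrial median stayed below the median gene at -0.56 and -0.55.

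**Figure D1:**
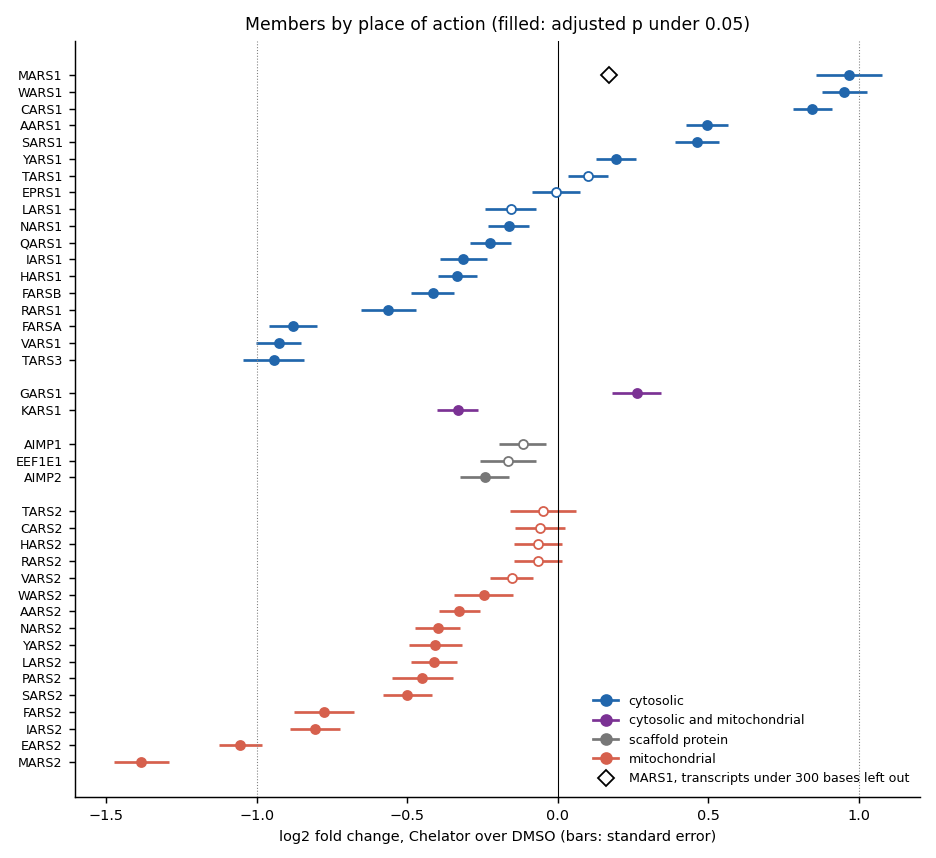
Each point is the log2 fold change of a member, Chelator over DMSO (x axis, bars are standard errors), grouped by place of action, filled where the adjusted p was under 0.05, and the dotted lines mark a change of 1 in size. All 16 mitochondrial enzymes lie below 0 and the cytosolic enzymes spread from -0.94 to 0.97, and the open diamond shows MARS1 at 0.17 once transcripts under 300 bases were left out.

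The 7 members that rose were CARS1, WARS1, MARS1, AARS1, SARS1, YARS1 and GARS1. CARS1 (chr11:3000922-3057613, GRCh38, minus strand) encodes the cytosolic enzyme for cysteine. Its normalized counts, estimated counts put on 1 scale for depth and transcript length, were 9429, 8971 and 9035 in DMSO, and the 3 Chelator libraries had 16457, 15893 and 16932. Every Chelator library stood well above every DMSO library, and the 3 within a group were close together. The mean went from 9145 ± 248 to 16427 ± 520.2 (SD, n = 3), and on the log2 scale the change was 0.84 ± 0.07 (SE, adjusted p = 1.84e-36 with DESeq2). WARS1 (chr14:100333790-100376805, minus strand), the cytosolic enzyme for tryptophan, had 24541, 25606 and 25567 normalized counts in DMSO and 52879, 45526 and 47994 in Chelator. Here too the groups were far apart, with the first Chelator library the highest. The log2 fold change was 0.95 ± 0.07 (adjusted p = 9.2e-36), and it was 1.08 without the correction for transcript length, which is past the stricter call. AARS1 (chr16:70251983-70289707, minus strand), for alanine, had 44476, 45859.6 and 46979.9 normalized counts in DMSO and 69239, 61677 and 62599.6 in Chelator. All 3 Chelator values lay above the DMSO values. It rose by 0.49 ± 0.07 on the log2 scale (adjusted p = 2.26e-11), and by 0.30 once trends with GC content and length were taken out. SARS1 (chr1:109213918-109238182, plus strand), for serine, had 23620.1, 21399.7 and 22507 in DMSO and 32974, 29526 and 30493 in Chelator, again without overlap. Its log2 fold change was 0.46 ± 0.07 (adjusted p = 2.65e-09), 0.30 after centring and 0.24 with the trends removed.

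The smallest rises were those of YARS1, the cytosolic enzyme for tyrosine, and of GARS1, which charges glycine in the cytosol and in mitochondria. YARS1 rose by 0.19 (adjusted p = 0.011) and GARS1 by 0.26 (adjusted p = 0.00543). Neither passed after centring, where the values were 0.04 and 0.10, or with the GC and length trends taken out (0.03 and 0.18), although GARS1 passed with these trends taken out and the replicate block added (0.18, adjusted p = 0.0363), and YARS1 did not pass without Chelator replicate 3 (0.18). MARS1 (chr12:57475445-57517569, plus strand), the cytosolic enzyme for methionine, had 26741, 25291 and 27121 normalized counts in DMSO and 41897, 52886 and 59944 in Chelator. The groups did not overlap, but the Chelator libraries spread more widely than those of any of the other 4 members described above, with the first the lowest. Its log2 fold change was 0.97 ± 0.11 (adjusted p = 2.63e-17), and it fell to 0.17 without the correction for transcript length (adjusted p = 0.0136). Without the first Chelator library it exceeded 1 and passed the stricter call.

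The largest falls among cytosolic enzymes were those of TARS3, VARS1 and FARSA. VARS1 (chr6:31777518-31795752, minus strand), the enzyme for valine, had 112408, 114953 and 118584 normalized counts in DMSO and 64940.4, 55654 and 61208 in Chelator. The highest Chelator library was far below the lowest DMSO library. The mean of 115315 ± 3104 became 60601 ± 4673 (SD, n = 3), a change of -0.93 ± 0.07 on the log2 scale (adjusted p = 4.26e-34). FARSA (chr19:12922479-12934037, minus strand) encodes the alpha subunit of the cytosolic enzyme for phenylalanine and was the member with the highest level per length in DMSO, at 416 TPM. A short transcript of 521 bases, FARSA-206, held 46.4, 45.4 and 49.1% of its TPM in the DMSO libraries. FARSA had 33418, 30391 and 36549 normalized counts in DMSO and 18409.5, 17719 and 18378 in Chelator. The Chelator libraries lay close to each other and below every DMSO library. The log2 fold change was -0.88 ± 0.08 (adjusted p = 8.01e-27), with -0.63 when transcript length was not corrected for and -1.35 once the GC and length trends were taken out. Its partner FARSB, the beta subunit of the same enzyme, had a log2 fold change of -0.42 (adjusted p = 4.69e-08). TARS3 (chr15:101653596-101724473, minus strand), a close relative of the threonine enzyme TARS1, was the member with the lowest level, 8.08 TPM in DMSO. It had 1627, 1516 and 1458 normalized counts in DMSO and 814, 765 and 812 in Chelator. Even the lowest DMSO library was well above the highest Chelator library. The log2 fold change was -0.94 ± 0.10 (adjusted p = 3.81e-19).

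The other cytosolic enzymes that fell, with their log2 fold changes, were RARS1 -0.56, HARS1 -0.33, IARS1 -0.31, QARS1 -0.22 and NARS1 -0.16, for arginine, histidine, isoleucine, glutamine and asparagine. NARS1 was at the edge of the threshold (adjusted p = 0.0471) and did not pass in 9 of the 16 alternative analyses, those without Chelator replicate 2 or 3 or DMSO replicate 1 or 3 among them. QARS1 had -0.10 without the length correction (adjusted p = 0.226). The enzymes that did not pass were LARS1 for leucine (-0.16, adjusted p = 0.142), TARS1 for threonine (0.10, adjusted p = 0.245) and EPRS1, which charges both glutamate and proline (-0.01, adjusted p = 0.971). LARS1 passed without the first Chelator library (-0.25), without the length correction (-0.21) and after centring (-0.31). The first Chelator library was the highest of its group for 27 of the 39 members.

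Members of the complex went in both directions. Of the 7 enzymes of the multi-synthetase complex MARS1 rose, IARS1, KARS1, QARS1 and RARS1 fell, and EPRS1 and LARS1 did not pass, with a median log2 fold change of -0.22. KARS1, the enzyme for lysine in the cytosol and in mitochondria, had 30339, 29263 and 31244 normalized counts in DMSO and 25432, 23256 and 23446 in Chelator, and the groups did not overlap (log2 fold change -0.33 ± 0.07, adjusted p = 6.39e-06). Of the 13 enzymes outside the complex that act in the cytosol 6 rose, 6 fell and 1 did not pass, with a median of 0.10. Of the scaffold proteins AIMP2 fell (-0.24, adjusted p = 0.00997), while EEF1E1 (-0.17, adjusted p = 0.157) and AIMP1 (-0.12, adjusted p = 0.246) did not pass. Without the length correction this turned round: AIMP2 (-0.17, adjusted p = 0.0819) did not pass, while EEF1E1 (-0.28, adjusted p = 0.00108) and AIMP1 (-0.21, adjusted p = 0.0104) did. EEF1E1 and AIMP1 also passed after centring (-0.32 and -0.27) and without DMSO replicate 2 (-0.25 and -0.17). AIMP1 had 6922, 6168 and 6848 normalized counts in DMSO and 6395, 5959 and 6027 in Chelator, where the groups overlapped. The AIMP2 gene overlaps EIF2AK1 on the opposite strand, and 30.3% of the 31-base windows of its transcripts also occur in transcripts of other genes. Synthetases fall into 2 classes with unrelated catalytic folds. Among enzymes that act in the cytosol, 4 of 9 in class I rose and 4 fell, and 3 of 10 in class II rose and 6 fell, with EPRS1, which has domains of both classes and did not pass, counted in neither. Among mitochondrial enzymes none rose, and 6 of 9 in class I and 5 of 7 in class II fell.

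**Figure D2:**
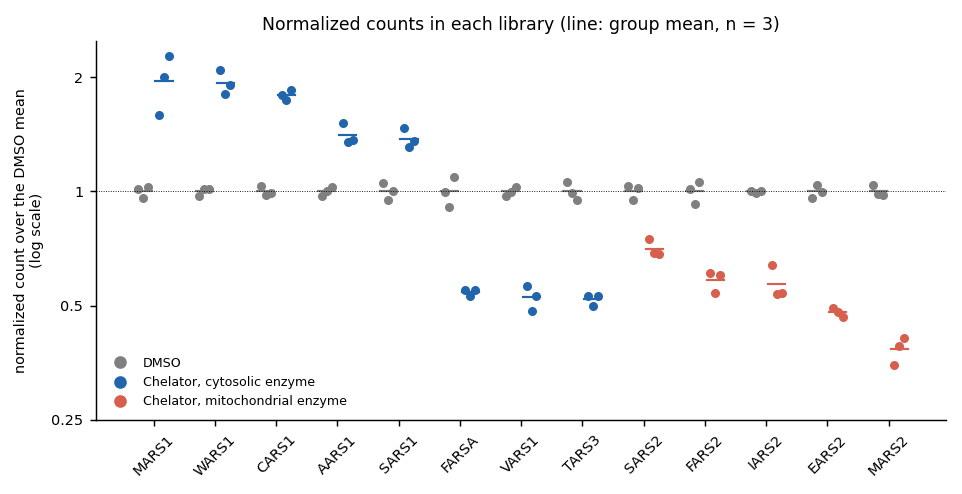
Normalized counts of 13 members in each library, divided by the DMSO mean of the gene (y axis, log scale, horizontal lines are group means, n = 3), with DMSO in grey, Chelator in blue for cytosolic and in red for mitochondrial enzymes. In none of the 13 genes do the DMSO and Chelator points overlap, and the first Chelator point of MARS1 lies apart from the other two. The 13 are the cytosolic and mitochondrial members with the smallest adjusted p, so the choice favoured points without overlap.

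Among mitochondrial enzymes the fall was largest for MARS2 (chr2:197705369-197708395, plus strand), which charges methionine onto the single methionine tRNA of mitochondria. It had 3552, 3357 and 3337 normalized counts in DMSO and 1192, 1333 and 1404 in Chelator. Every Chelator library was below every DMSO library by a wide margin. The mean of 3415 ± 119 became 1309 ± 108 (SD, n = 3), a change of -1.38 ± 0.09 on the log2 scale (adjusted p = 5.72e-49). EARS2 (chr16:23520754-23557731, minus strand), the mitochondrial enzyme for glutamate, had 7018, 7589 and 7279 in DMSO and 3603, 3516 and 3414 in Chelator. The groups were again well apart. Its log2 fold change was -1.06 ± 0.07 (adjusted p = 8.09e-47), and -0.96 without the length correction, just short of the stricter call. IARS2 (chr1:220094132-220148041, plus strand), for isoleucine, was the most abundant mitochondrial enzyme per length, at 108 TPM in DMSO. Its normalized counts were 25633, 25281 and 25646 in DMSO and 16281, 13675 and 13803 in Chelator, with the DMSO libraries nearly equal and all above the Chelator libraries. It had a log2 fold change of -0.81 ± 0.08 (adjusted p = 1.25e-21).

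FARS2 (chr6:5261044-5829192, plus strand), for phenylalanine, had 2236, 2032 and 2332 normalized counts in DMSO and 1343, 1184 and 1323 in Chelator, without overlap. The log2 fold change was -0.78 ± 0.10 (adjusted p = 1.05e-13). SARS2 (chr19:38915266-38930763, minus strand), for serine, had 4210.1, 3867 and 4147 in DMSO and 3053, 2802 and 2784 in Chelator, and these groups did not overlap either. Its log2 fold change was -0.50 ± 0.08 (adjusted p = 6.56e-09), but the size depended on length. Its transcripts averaged 1192 bases of effective length in DMSO against 1464 in Chelator, and uncorrected for length the value was -0.22 (adjusted p = 0.00912), against -0.94 with the GC and length trends taken out. The other mitochondrial enzymes that fell were PARS2 -0.45, LARS2 -0.41, YARS2 -0.41, NARS2 -0.40, AARS2 -0.33 and WARS2 -0.25 (log2 fold changes). WARS2 had an adjusted p of 0.0323 and did not pass in 7 of the 16 alternative analyses. The 5 that did not pass were VARS2 -0.15, RARS2 -0.07, HARS2 -0.07, CARS2 -0.06 and TARS2 -0.05. These 5 depended on the analysis: once the GC and length trends were taken out, VARS2 (-0.48), CARS2 (-0.39), TARS2 (-0.28) and HARS2 (-0.20) passed with a fall. Without the length correction VARS2 (-0.19) and CARS2 (-0.25) passed, and after centring VARS2 (-0.31), RARS2 (-0.22), HARS2 (-0.22) and CARS2 (-0.22) did. VARS2 also passed without DMSO replicate 2 (-0.19). VARS2 shares 61.7% of its 31-base windows with other genes, most with an annotated lncRNA on the same strand (ENSG00000288473), so its counts could be divided between them.

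Cytosolic enzymes were set beside the mitochondrial enzyme for the same amino acid in 17 pairs. FARS2 and TARS2 each stand in 2 of these because the cytosol has 2 genes. EPRS1, which charges glutamate and proline, was set beside EARS2 only. Its proline pair with PARS2, which fell, is therefore not counted. In 12 pairs the cytosolic log2 fold change was the higher and in 5 the lower, and under the 16 alternatives 12 or 13 were higher. The median difference, cytosolic minus mitochondrial, was 0.36. In 5 pairs both genes passed in opposite directions, the cytosolic gene up and the mitochondrial gene down: AARS1 and AARS2 (0.49 and -0.33), MARS1 and MARS2 (0.97 and -1.38), SARS1 and SARS2 (0.46 and -0.50), WARS1 and WARS2 (0.95 and -0.25), and YARS1 and YARS2 (0.19 and -0.41). The pairs of AARS1, MARS1 and SARS1 met this in all 16 alternative analyses. The pair of WARS1 or that of YARS1 dropped out in 11 of them, and the count ran from 4 to 6, with CARS1 and CARS2 added in 4. The reverse order held for valine (VARS1 -0.93, VARS2 -0.15), arginine (RARS1 -0.56, RARS2 -0.07), histidine (HARS1 -0.33, HARS2 -0.07), and for TARS3 against TARS2 and FARSA against FARS2. In DMSO the cytosolic gene had the higher level in TPM in 16 of the 17 pairs, by up to 27.4 times (WARS1 over WARS2), and the exception was TARS3, at 0.237 times TARS2. For WARS1 over WARS2 the ratio of TPM levels was 62.5 in Chelator.

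**Figure D3:**
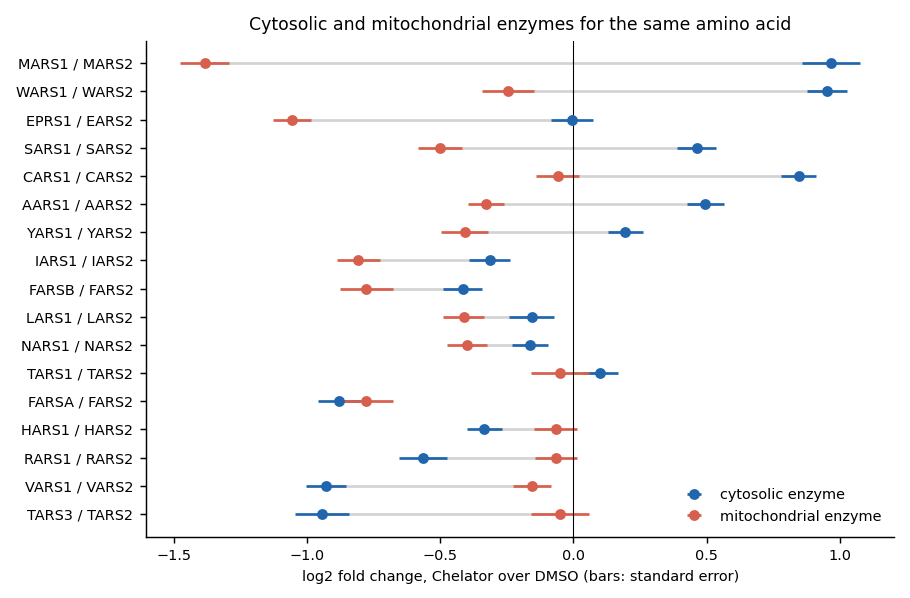
Log2 fold changes (x axis, bars are standard errors) of the cytosolic enzyme in blue and the mitochondrial enzyme in red for each of 17 pairs, ordered by their difference. The cytosolic point lies to the right in 12 pairs, most widely for MARS1 and MARS2, whose difference was 2.35, or 1.55 with transcripts under 300 bases left out.

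Of the 39 members, MARS1 had the log2 fold change that moved furthest when transcript length was not corrected for. Its main transcript, MARS1-201 (ENST00000262027.10), has 21 exons and 2797 bases. MARS1-234 (ENST00000630571.2) has 3 exons and 216 bases, lies between positions 57488091 and 57489911 of chromosome 12, and joins exon 2 of MARS1-201 to exon 5. It leaves out exons 3 and 4, which are coding in MARS1-201 and together hold 214 bases, not a multiple of 3. The 30 bases at each junction are given here with the first 15 bases after the junction in capitals, so that the shared start and the shared end can be seen, followed by the skipped exons.
MARS1-201, exon 2 into exon 3: tagtgcaatctgccgATATTTTTTTTTGTT
MARS1-201, exon 4 into exon 5: cctttcctggctgggGAGACAGAATCTCTA
MARS1-234, exon 2 into exon 5: tagtgcaatctgccgGAGACAGAATCTCTA
MARS1-201, exon 3 (chr12:57489267-57489345, plus strand): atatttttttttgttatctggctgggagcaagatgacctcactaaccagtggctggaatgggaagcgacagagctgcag
MARS1-201, exon 4 (chr12:57489424-57489558, plus strand): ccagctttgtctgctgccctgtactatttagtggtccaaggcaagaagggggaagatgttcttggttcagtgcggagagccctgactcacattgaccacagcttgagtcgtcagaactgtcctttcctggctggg
The sequences are those of GENCODE release 44 transcripts on GRCh38.

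MARS1-234 had 0 estimated counts in all 3 DMSO libraries but 249.5, 679 and 775 after chelation. The quantification thus assigned counts to it in each Chelator library, fewest in the first, and none in any DMSO library. Because all of its sequence is shared with other MARS1 transcripts, an assigned count of 0 does not show that it was absent from DMSO. Against a floor of 3 counts per library the assigned count is at least 172-fold higher after scaling for depth, a bound that covers counting error only. These counts were 1.36% ± 0.719 of the gene's counts in Chelator (SD, n = 3). In TPM, which divides counts by effective length, the same transcript took 27.8, 45.1 and 50.2% of the gene, a mean of 41% ± 11.8. Its effective length was 21, 21 and 22 bases in DMSO but 27.3, 32.1 and 35.1 bases after chelation, so that 1 count weighed between 75.4 and 96.5 times as much in TPM as 1 count of MARS1-201. MARS1-201 had 141, 166 and 144 TPM in DMSO and 168, 155 and 157 TPM in Chelator. Those groups overlapped, although its share of the gene's TPM went from 59.8% ± 1.94 to 33% ± 8.38. The retained-intron transcript MARS1-232 had shares of 30.3, 27.3 and 30.1% in DMSO and 17.1, 14.6 and 10.7% in Chelator, but its own TPM overlapped between the groups, at 72.5, 73.4 and 74 in DMSO and 67.6, 77.2 and 62.5 in Chelator.

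The average effective length of the gene, which weights each transcript by its TPM, was 1759.9, 1803 and 1743 bases in DMSO against 1305, 957 and 883 bases after chelation. This average is the length correction of the gene-level test. With transcripts under 300 bases left out, an analysis chosen after these values were seen, the log2 fold change of MARS1 was 0.17 ± 0.06 (adjusted p = 0.0199), and without any length correction it was 0.17. Summed TPM of the gene without MARS1-234 was 239, 268 and 246 in DMSO and 285, 290.2 and 289.9 in Chelator, where every Chelator library was higher. No stretch of 31 bases belongs to MARS1-234 alone: each of its 186 windows of 31 bases also occurs in another MARS1 transcript, and the 16 that cross its junction occur in 3 others, MARS1-205, MARS1-207 and MARS1-227, which had between 0 and 20.9 counts in a DMSO library and between 3.12 and 59.4 in a Chelator library. The gene overlaps DDIT3 on the opposite strand over 982 bases, a stress-response gene named here after its values were seen, which had 614, 477 and 542 normalized counts in DMSO and 2635, 2741 and 2757 in Chelator (log2 fold change 2.32). MARS1 also overlaps ARHGAP9 on the opposite strand, over 13370 bases (log2 fold change 0.75, adjusted p = 0.015 with DESeq2). Whether the libraries kept strand is not given in the sources used here. The part of DDIT3 reads, of ARHGAP9 reads and of fragment length in the MARS1 values was not tested.

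**Figure D4:**
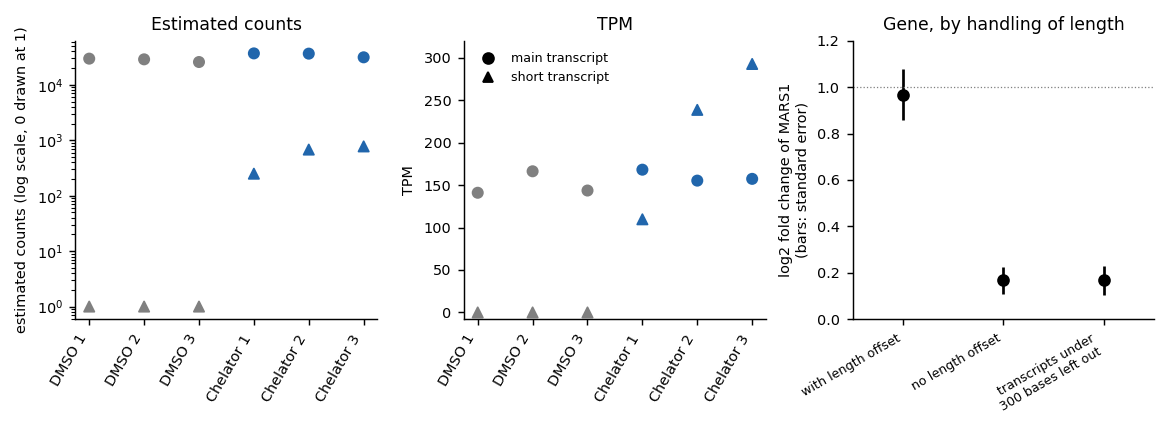
MARS1-201 (circles) and MARS1-234 (triangles) in each library, DMSO in grey and Chelator in blue, as estimated counts (left, log scale, with 0 drawn at 1) and as TPM (middle), and the log2 fold change of the gene under 3 treatments of transcript length (right, bars are standard errors). In Chelator, MARS1-234 holds at most 775 counts beside at least 31384 of MARS1-201, yet reaches 293 TPM beside 157 in 1 library, and the gene value goes from 0.97 to 0.17.

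Transcript choice within a gene was tested with edgeR's diffSpliceDGE, which combines the transcripts of a gene into 1 Simes p. A call needed an adjusted p under 0.05 and a transcript whose part of the gene's TPM moved by over 5 percentage points. Of the 34 members with enough transcripts to test, 8 were called, where 9.22% of all 11938 genes tested were: MARS1, EARS2, WARS1, KARS1, TARS1, AIMP1, FARSA and SARS1. The transcripts MARS1-234, EARS2-206 and WARS1-229 met the minimum of 10 counts in 3 libraries through 1 group only and so had to differ, and the count of 8 is not read against the background. With 10 counts asked of all 6 libraries, a rule chosen after these values were seen, 12 of 34 members and 20.1% of 9934 genes were called. EARS2 was not among them (adjusted p = 0.101), the other 7 were, and CARS2, RARS2, SARS2, QARS1 and VARS2 joined. For MARS1 the size of the share change still rests on MARS1-234, which stays in the gene's TPM: the share of MARS1-201 moved by -26.8 percentage points, and by -3.60 over transcripts of at least 500 bases. KARS1 and TARS1 were called in all 6 analyses that left out a library. In KARS1 (adjusted p = 3.82e-08) the transcript annotated for nonsense-mediated decay, KARS1-204, took 2.43, 1.74 and 3.15% of the gene's TPM in DMSO and 7.59, 8.97 and 11.4% in Chelator, without overlap. In TARS1 (adjusted p = 0.000213) the main transcript TARS1-201 took 93.3, 92.4 and 92.9% in DMSO and 82, 81 and 81.7% in Chelator. The groups were clearly apart, and TARS1-214, a 466-base coding transcript, went from 0.373% ± 0.507 to 7.69% ± 2.08 (SD, n = 3).

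EARS2 and WARS1 each had a transcript that was assigned counts in DMSO only. EARS2-206, a coding transcript of 1709 bases, had 358, 385 and 407 estimated counts in DMSO and 0 in every Chelator library, at least 143-fold lower against the floor of 3 counts per library. EARS2-217, annotated for nonsense-mediated decay, took 32.9, 29.1 and 32.7% of the gene's TPM in DMSO and 43.9, 38.8 and 43.9% in Chelator, every Chelator share above every DMSO share. WARS1-229, a coding transcript of 528 bases, had 86.2, 184 and 177 counts in DMSO and 0 in every Chelator library, at least 56-fold lower. Sequence shared with other transcripts was not examined for EARS2-206 and WARS1-229. An assigned count of 0 therefore does not show that either was absent from Chelator. The retained-intron transcript WARS1-237 had shares of 27.7, 23.6 and 24.2% in DMSO and 39.8, 37.2 and 35.4% in Chelator, and WARS1-239 had 15.4, 20.3 and 19% and 3.67, 5.41 and 8.94%, both without overlap. With 10 counts asked of all libraries, which leaves WARS1-229 out, the usage of WARS1 had an adjusted p of 5.36e-06. MARS1 and EARS2 were called without any one DMSO library and without any one Chelator library, respectively, and were not called when a library of the group holding the counts was left out. A transcript needed 10 counts in 3 libraries to be tested, so one assigned counts in a single group drops out with any library of that group.

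FARSA, the alpha subunit of the phenylalanine enzyme, also changed in transcript choice (adjusted p = 0.00904): the retained-intron transcript FARSA-209 went from 9.57, 7.26 and 11.7% in DMSO to 16.8, 20.3 and 24.5% in Chelator, and the short coding transcript FARSA-206 from 46.4, 45.4 and 49.1% to 33.6, 29.8 and 27.2%. Neither overlapped between groups. AIMP1-210, a coding transcript of the scaffold gene, had 7.05, 5.2 and 6.5% in DMSO and 12.7, 15.7 and 16.5% in Chelator (adjusted p = 0.00742). SARS1-205, which has no annotated coding frame, had 1.42, 2.36 and 3.02% in DMSO and 9.58, 5.15 and 7.32% in Chelator (adjusted p = 0.0104). These 3 genes, and WARS1, were called in 2 to 4 of the 6 analyses that left out a library. The count of 8 became 5 without DMSO replicate 2, without Chelator replicate 2 or without Chelator replicate 3. YARS1, GARS1 and HARS1 passed the adjusted p with changes of share under 5 percentage points.

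**Figure D5:**
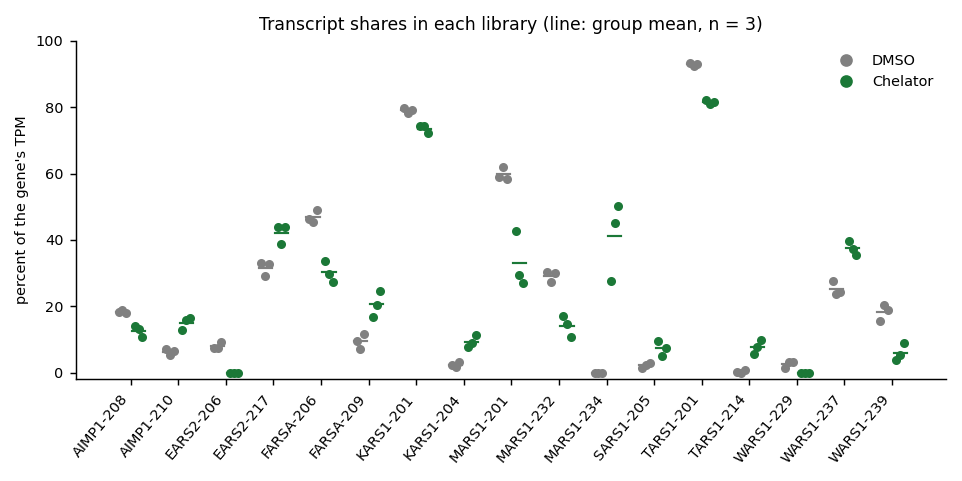
Share of the gene's TPM held by 17 transcripts of the 8 called members in each library (y axis, percent, horizontal lines are group means, n = 3), DMSO in grey and Chelator in green. MARS1-234 is at 0 in DMSO, EARS2-206 and WARS1-229 are at 0 in Chelator, and the other transcripts shift without overlap between the groups. All 17 belong to members called for transcript usage, so the choice favoured shifts without overlap.

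The genes around the synthetases were read from 3 lists written from general knowledge. Of all 24542 genes with an adjusted p, 19.5% rose and 18.3% fell. Of 34 genes of ATF4 and of amino acid synthesis and import, 28 rose, 1 fell and 5 did not pass, with a median log2 fold change of 0.91. ATF4, the transcription factor itself, had 14818, 12869 and 13194 normalized counts in DMSO and 37059.5, 38107 and 38895 in Chelator. The Chelator libraries were all far higher, with a log2 fold change of 1.48 ± 0.07 (adjusted p = 1.3e-85). PHGDH, the first enzyme of serine synthesis, had 3293, 3721 and 3509.7 normalized counts in DMSO and 17686, 16603 and 18128 in Chelator, a log2 fold change of 2.32. ATF3, a stress-induced transcription factor, had 585, 491 and 591 normalized counts in DMSO and 3778, 2965 and 3158 in Chelator, and JDP2, a related factor, had 162, 149 and 164 normalized counts in DMSO and 897, 853 and 1042 in Chelator, with log2 fold changes of 2.57 and 2.55 and no overlap. ALDH18A1, which makes the precursor of proline, was the one gene of the list that fell (-0.55).

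Of 16 genes of tRNA handling outside the mitochondrial list 4 rose and 6 fell, against 19.5% and 18.3% of all genes. The median was 0.02, and the split was 0 and 6 after centring and 2 and 8 once the GC and length trends were taken out. PSTK, the kinase that acts on serine carried by the selenocysteine tRNA, had 981, 873 and 835 normalized counts in DMSO and 446, 522 and 427 in Chelator. All Chelator libraries were lower (log2 fold change -0.95 ± 0.14). DTD2, which clears mischarged tRNAs, had a log2 fold change of -0.86 with 1564, 1405 and 1472 normalized counts in DMSO and 821, 788 and 842 in Chelator, and ELAC2, which trims the 3′ end of precursor tRNAs in the nucleus and in mitochondria, one of -0.85 with 14519, 13813 and 14075 and 8419, 7581 and 7590.3. Neither overlapped. TRNT1 (-0.38), which adds the end of every tRNA, also serves mitochondria. Of 20 factors of mitochondrial tRNA use and translation none rose, 12 fell and 8 did not pass (median -0.29). Over all genes 18.3% fell. None of the 20 rose at an unadjusted p under 0.05 with DESeq2 or at an adjusted p under 0.05 with edgeR (0 of 20 in each). GFM1, the mitochondrial elongation factor G, had 13345, 12619 and 14435 normalized counts in DMSO and 6217, 6073 and 6742 in Chelator, the largest fall of the list. Every Chelator library was below the DMSO libraries (log2 fold change -1.09 ± 0.08, adjusted p = 1.74e-40). MTFMT, which adds the formyl group to the initiator methionine that MARS2 has charged, had 1785, 1611 and 1681 normalized counts in DMSO and 1079.7, 946 and 1123 in Chelator (-0.69). TRMT5, a tRNA methyltransferase, had 2069, 1906 and 1979 normalized counts in DMSO and 1325, 1326 and 1243 in Chelator (-0.61). The groups of both were apart.

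ATF4 is known to bind, with C/EBP partners, a composite element read here as TGATGNAA on either strand, of which TGATGCAA is the stricter form. The search covered RefSeq promoters from 250 bases before to 50 bases after the gene start (GRCh38.p14), which were at hand for 33 of the 39 members and not for AARS2, LARS1, TARS3, VARS1, VARS2 and YARS1. The motif was found in 8 of the 33 (24.2%), in 6 of 14 cytosolic and 1 of 14 mitochondrial enzymes, where 4.46% of all 27305 genes of the table held it. The stricter form was in 6 members, all cytosolic, against 1.08% of all genes. Windows of 30 bases around the motif in all 8 members are given 5′ to 3′ on the gene's strand, with the motif in capitals (TTGCATCA and TTTCATCA are matches on the other strand).
CARS1: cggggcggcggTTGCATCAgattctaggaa (chr11:3057407-3057436, minus strand)
MARS1: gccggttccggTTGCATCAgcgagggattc (chr12:57488053-57488082, plus strand)
AARS1: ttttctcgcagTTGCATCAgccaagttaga (chr16:70289675-70289704, minus strand)
GARS1: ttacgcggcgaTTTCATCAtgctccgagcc (chr7:30594834-30594863, plus strand)
IARS1: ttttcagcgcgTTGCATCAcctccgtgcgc (chr9:92293692-92293721, minus strand)
NARS1: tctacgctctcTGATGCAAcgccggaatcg (chr18:57621804-57621833, minus strand)
YARS2: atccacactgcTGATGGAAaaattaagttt (chr12:32756076-32756105, minus strand)
TARS1: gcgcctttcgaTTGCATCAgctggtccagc (chr5:33440956-33440985, plus strand)
The first 4 of these 8 genes rose, IARS1, NARS1 and YARS2 fell, and TARS1 did not pass. WARS1 and SARS1 rose, and their promoter windows held no match. A match of 8 letters is a description of the sequence and does not show that a factor was bound.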

How the data were processed

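RNA from K562 cells was measured in 6 libraries, 3 Chelator and 3 DMSO, grouped by the sample labels. The authors had polyadenylated RNA selected, sequenced it as read pairs and quantified transcripts with Salmon 1.10.2, and the submitters' processing notes name build hg38. The deposited files hold, per transcript and library, an estimated count, and the TPM that the authors' quantification made from it, which is the estimated count over effective length scaled to 1 sum per library. The annotation, the bias options and the strand setting are not given in the sources used here.

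Identifiers of the quantified transcripts were looked up in release 44 of GENCODE. Of 252045, 251142 had the same version, 470 another version and 433 no match (between 0.139% and 0.150% of a library's counts, left out). Estimated counts and TPM were summed over each of 62252 genes, and summed counts were rounded. Genes with a total above 10 entered DESeq2 1.42.0 (Wald test, median-ratio size factors, average transcript length as an offset, Benjamini-Hochberg adjustment), which follows the study's stated tool and thresholds. Transcript usage was tested with edgeR 4.0.16 (diffSpliceDGE) for transcripts that reached 10 counts in 3 or more libraries, in R 4.3.3, with limma 3.58.1 as an alternative. Alternatives changed the test, scaling, filter, length offset, GC content and length trends, replicate block and the libraries used, and their effect is given in the closing section. Both tests were tested on simulated data, where both recovered most changes and made more false calls than the threshold allows. A floor of 3 counts per library stood for groups at 0, and such bounds cover counting error only.

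The members were defined by gene name, but this family, the gene lists and the motif were chosen with earlier results of these data known. Library values are printed for the 8 cytosolic or dual members with the smallest adjusted p, the 3 cytosolic genes with the largest falls, the 5 mitochondrial members with the smallest adjusted p, members past the stricter call or called for transcript usage, and, in each companion list, the 3 genes with the largest change that passed and averaged 100 normalized counts or more, with ATF4. The other members are given by counts and log2 fold changes.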

Additional observations from a re-analysis of the deposited data

How the results depend on the processing

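Counts of members past the adjusted p stayed within 1.5 times the main counts in all 16 alternative analyses, for cytosolic and mitochondrial genes and in both directions. The stricter call with a rise, 0 members in the main analysis, took 1 member with TMM size factors, 1 with edgeR, 1 without the length offset, and 0 to 1 over the analyses that left out a library. The stricter call with a fall, 2 in the main analysis, took 5 after centring, 5 with trends of GC content and length removed, 5 with these trends removed and the replicate block, and 1 without the length offset. The mitochondrial median of -0.40 became -0.36 with TMM, -0.36 with edgeR, -0.35 without the offset, -0.56 after centring, -0.55 with the trends removed and -0.55 with the trends removed and the block, and the cytosolic median of -0.16 became -0.32 after centring and -0.08 without the offset. Centring lowers every gene by the same amount by construction. EPRS1, which did not pass, changed sign to 0.0391 (TMM), 0.0391 (edgeR), 0.0275 (trends removed) and 0.0271 (with the block), and ranged from -0.0831 to 0.0422 over left-out libraries. TARS1 changed sign to -0.0565 after centring and -0.0524 without the offset, and TARS2 ranged from -0.157 to 0.0343 over left-out libraries, and neither passed in the main analysis. The 1 gene of the ATF4 list that fell became 4 with the trends removed, 4 with the block added and 2 after centring. The 4 rises in tRNA handling outside the mitochondrial list became 2 with the trends removed and 0 after centring, and the 12 falls in the mitochondrial list became 19 after centring. The cause of these shifts was not tested. Members with changed transcript usage, 8 in the main analysis, were 15 with limma's diffSplice, 5 with a share change above 10 percentage points, and 5 to 7 over left-out libraries. The share of MARS1-234 in Chelator was 1.36% of estimated counts against 41.0% of TPM, and the share of MARS1-201 changed by -5.09 percentage points in counts and -3.60 over transcripts of at least 500 bases, against -26.8 in the main analysis, since TPM divides by an effective length that is short for MARS1-234. Libraries of the same number were not paired by the labels, and their deviations correlated by -0.07, 0.13 and 0.11, so that not every library went with its own number. With the replicate block 7 members rose, 20 fell and 6 changed in transcript usage (FARSA, adjusted p = 0.0753, and AIMP1, 0.0828, dropped out), and NARS1 and WARS2 no longer passed. Depth limits the rarer transcripts: those with few counts, such as the 3 that share the MARS1-234 junction, carry large relative error.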
